A study of Mus musculus with 192 samples.

Results

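A set of 10 genes that mark the granule cells of the dentate gyrus were followed through the hippocampus of 192 mice. They are Prox1, C1ql2, C1ql3, Dsp, Calb1, Plk5, Lct, Tdo2, Dock10 and Trpc6, taken by their symbols in GENCODE vM21, and all 10 were found among the 41128 Ensembl genes of the deposited count table. All 10 also had enough counts to be tested in every comparison. Of the mice, 96 were wild type (WT) and 96 were zQ175, a mouse line that models Huntington's disease through an expanded CAG repeat knocked in to its own Htt gene. Mice of both genotypes were untreated, or received a non-targeting small interfering RNA (siRNA) called NTC, the siRNA HTT-10150 against full-length HTT, or the siRNAs HTT-634 and HTT-486 together (HTT-634.486), which are directed at the short transcript HTT1a. There were 3 regimens, written as age at treatment, months in between and age at collection: 2[4]6 (treated at 2 months, collected at 6 months), 6[4]10 (treated at 6, collected at 10) and 2.6[8]10 (treated at 2 and again at 6, collected at 10). Regimen, genotype and treatment make 24 groups of 8 mice, 4 females and 4 males each. Every animal in the untreated groups of a regimen had the same age as the treated ones, and the 6-month and 10-month mice were different animals, so that age and cohort cannot be told apart. The zygosity, the strain background and the dose and route of the siRNAs are not stated in the labels.

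Granule cells are the principal neurons of the dentate gyrus. They receive the input from the entorhinal cortex and send their axons, the mossy fibres, to the hilus and to the pyramidal cells of area CA3, and they are one of the few neuron types that are still made in the adult brain. The 10 markers have different roles. Prox1 is a homeobox transcription factor that sets and maintains the identity of the cell. C1ql2 and C1ql3 are secreted C1q-like proteins that mossy fibres release at their synapses, where they bind neurexins, kainate receptors and the adhesion receptor Adgrb3. Dsp, desmoplakin, ties cell junctions to intermediate filaments, and Calb1, calbindin, buffers calcium in the cytosol. Plk5 belongs to the polo-like kinase family. Lct is lactase, best known as an enzyme of the intestine, and Tdo2 is tryptophan dioxygenase, which opens the kynurenine pathway. Dock10 belongs to the DOCK family of exchange factors, and Trpc6 is a cation channel of the TRPC family. Calb1 is also made by CA1 pyramidal cells, by interneurons and by striatal neurons, so it is not selective for granule cells. Plk5 and Dock10 were also present in a library, described below, that had little of most other markers. Their selectivity for granule cells was not tested. The tissue was whole hippocampus. Fewer granule cells, less RNA per granule cell and a change of the RNA from other cells therefore cannot be told apart in any of the values that follow.

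The 5 promoters shown next belong to the 4 markers that were lower in zQ175 mice with the largest changes and to Prox1, which was not called in any comparison of genotypes, and are shown so that their sequences can be set side by side. Each is the 250 bases before the start site, 5′ to 3′ on the gene's strand, from RefSeq on GRCm38.p6. Capitals mark matches, on either strand, to one of 6 short motifs. These are the TATA box, searched as TATAAA, the box with the letters CCAAT, the GC box, searched as GGGCGG, the cyclic AMP response element, searched as TGACGTCA, the E-box type bound by NeuroD factors, searched as CAGATG, and a further E-box, searched as CAGCTG. C1ql2 lies at chr1:120340332-120340581 on the plus strand, Plk5 at chr10:80356209-80356458 on the plus strand, Lct at chr1:128328319-128328568 on the minus strand, Trpc6 at chr9:8543892-8544141 on the plus strand and Prox1 at chr1:190170828-190171077 on the minus strand.
C1ql2: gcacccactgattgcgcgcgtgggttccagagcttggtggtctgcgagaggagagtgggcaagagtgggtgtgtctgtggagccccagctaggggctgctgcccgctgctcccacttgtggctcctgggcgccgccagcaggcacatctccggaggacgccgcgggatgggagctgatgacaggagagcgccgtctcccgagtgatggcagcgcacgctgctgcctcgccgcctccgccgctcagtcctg
Plk5: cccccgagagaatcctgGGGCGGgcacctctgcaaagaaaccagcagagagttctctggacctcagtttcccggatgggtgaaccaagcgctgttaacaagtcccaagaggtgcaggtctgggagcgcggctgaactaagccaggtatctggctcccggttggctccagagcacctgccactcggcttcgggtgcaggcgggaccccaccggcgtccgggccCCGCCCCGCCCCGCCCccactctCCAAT
Lct: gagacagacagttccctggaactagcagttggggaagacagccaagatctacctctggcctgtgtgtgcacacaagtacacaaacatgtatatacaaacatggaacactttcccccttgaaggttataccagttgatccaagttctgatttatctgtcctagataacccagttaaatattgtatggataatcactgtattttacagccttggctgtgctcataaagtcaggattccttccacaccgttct
Trpc6: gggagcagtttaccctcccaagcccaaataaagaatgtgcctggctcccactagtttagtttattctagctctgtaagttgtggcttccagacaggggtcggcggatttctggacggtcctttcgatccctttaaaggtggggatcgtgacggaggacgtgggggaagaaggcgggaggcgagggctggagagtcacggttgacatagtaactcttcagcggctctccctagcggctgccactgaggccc
Prox1: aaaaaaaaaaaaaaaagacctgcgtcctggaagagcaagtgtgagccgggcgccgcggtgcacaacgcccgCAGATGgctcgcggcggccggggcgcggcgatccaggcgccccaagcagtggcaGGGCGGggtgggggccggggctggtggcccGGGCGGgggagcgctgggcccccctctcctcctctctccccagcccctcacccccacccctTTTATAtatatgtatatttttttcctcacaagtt
In these windows C1ql2, Lct and Trpc6 hold none of the 6 motifs. Plk5 holds 4 overlapping or separate GC boxes and 1 CCAAT box. Prox1 holds 2 GC boxes, 1 TATA box and 1 NeuroD-type E-box. Among 27025 promoters of the same length, 13% hold the TATA box, 34.5% the CCAAT box, 32.9% the GC box, 1.62% the cyclic AMP element, 14.5% the NeuroD-type E-box and 12.8% the other E-box. The base composition differed too. G and C make up 68.8% of the C1ql2 window, 65.6% of that of Plk5, 64.8% of that of Prox1 and 56.4% of that of Trpc6, but 42.8% of that of Lct. A match or its absence is a description of these letters only. Of the other members, C1ql3, Tdo2, Dsp and Dock10 also have an entry in the table, and Calb1 was not matched.

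Library depth was 8.4M to 56.0M counts (M, mega) in 2[4]6 (median 27.7M), 13.4M to 41.3M in 6[4]10 (median 24.5M) and 13M to 65.7M in 2.6[8]10 (median 16.5M). Htt itself was lowered by HTT-10150 against NTC by 0.44 to 1.27 on the log2 scale in 5 of 6 combinations of regimen and genotype (edgeR, adjusted p of at most 0.0244). In the sixth, 6[4]10 WT, the log2 change was -0.55 with an adjusted p of 0.16. With HTT-634.486 the Htt change lay between -0.07 and 0.10 and was not called. In 3 libraries the transcripts that mark sex did not match the label (6[4]10 zQ175 HTT-10150 female 4 and male 4, and 2.6[8]10 WT NTC female 2).

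The library labelled 2.6[8]10 WT HTT-10150 female 1 went against its tissue label. It had 1.61 CPM (counts per M counts of the library, M for mega) of C1ql2, against 123.4 to 152.0 CPM in the other 7 mice of its group. Its Prox1 was at 32.1 CPM (other 7 mice, 121.6 to 162.5), and its Lct at 0.349 CPM (40.4 to 56.3). C1ql3, Dsp, Tdo2 and Trpc6 were also below every other library of the series, whereas Calb1, at 241.6 CPM, was above every other library. Plk5, at 34.7 CPM, was within the range of the other 7 mice (28.1 to 41.9), and Dock10, at 98.8 CPM, was just under its range (103.6 to 134.8). The same library had little of the excitatory neuron genes Slc17a7 (28.9 CPM, other 191 libraries 999.5 to 1765.5) and Neurod6 (3.15 CPM, 82.7 to 268.5). It had much of the genes of striatal projection neurons, among them Drd1 at 282.3 CPM (other 191, 1.86 to 13.6), Drd2 at 166.8 CPM (0.237 to 7.73) and Ppp1r1b at 2872 CPM (38.1 to 167.7). The summed level of 7 striatal genes was 7317 CPM in it and 101.2 to 153.3 CPM in the other 7 mice. These striatal and excitatory genes were listed after the library had been noticed. Comparisons of 2.6[8]10 and of regimens were therefore fitted with this library (64 or 192 libraries) and without it (63 or 191), the latter chosen after seeing the data. Where 1 value is given for 2.6[8]10 or for regimens, it is the one with the library.

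**Figure D1:**
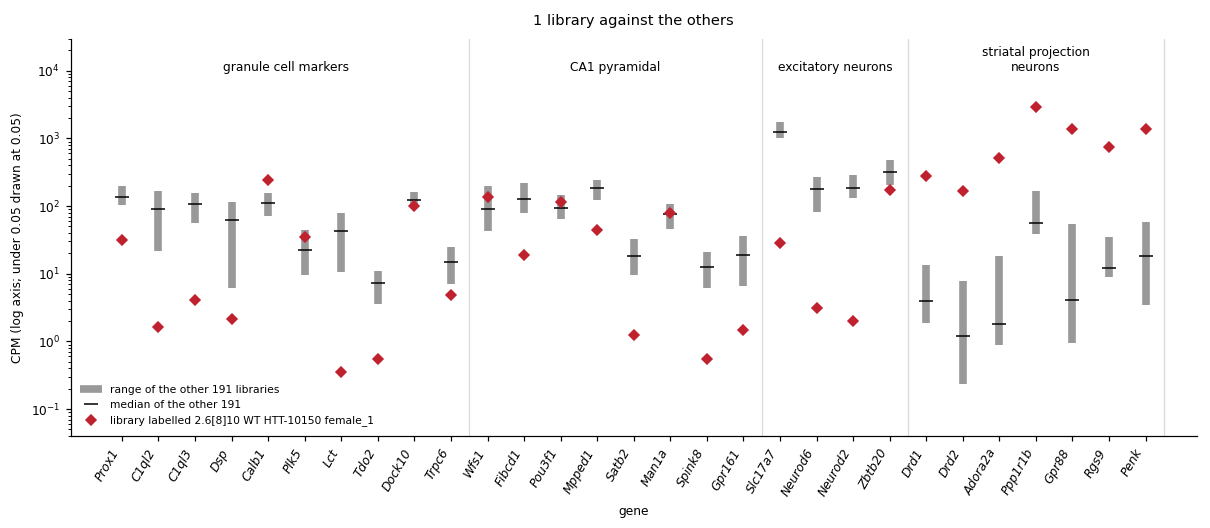
Level in CPM (log axis) of the 10 granule cell markers, CA1 markers, excitatory neuron genes and striatal projection neuron genes in the library labelled 2.6[8]10 WT HTT-10150 female_1 (diamonds) and in the other 191 libraries (grey bars, lowest to highest; line, median). C1ql2 was at 1.61 CPM and Lct at 0.349 CPM in this library, whereas all 7 striatal genes were above the range of the others.

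In a second library, 6[4]10 zQ175 HTT-10150 male 2, 9 of the 10 markers were the lowest of its group. Its Dsp was 6.18 CPM against 40 to 55.9 CPM in the other 7 mice, its C1ql2 21.8 CPM against 52.3 to 76.6 CPM, and its Prox1 116.4 CPM against 126.0 to 153.1 CPM. The members summed to 400.8 CPM in it and to 590.1 to 686.2 CPM in the other 7. CA1 markers were low in it as well, with a sum of 419.7 CPM against 517.8 to 608.5 CPM. No member changed its call for HTT-10150 against NTC in 6[4]10 when this library was left out, an alternative also chosen after seeing the data. Over all comparisons of 6[4]10 recomputed this way, 109 member values kept their side of the threshold and 1 gained a call.

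Per kilobase of exon, the markers spanned a wide range in the 24 untreated WT mice of the 3 regimens. C1ql2 stood at 54.1 ± 7.81 CPM per kb (SD, n = 24) and C1ql3 at 45.4 ± 4.28. Calb1 followed at 23.6 ± 2.46 and Prox1 at 16.1 ± 1.97. Plk5 (10.5 ± 1.58), Lct (8.80 ± 1.71), Dsp (7.59 ± 1.54) and Dock10 (7.11 ± 0.926) came next, and Trpc6 (3.64 ± 0.594) and Tdo2 (1.80 ± 0.261) were lowest. In this order the ranges of mean ± SD overlapped for C1ql2 and C1ql3 and for each pair of neighbours from Plk5 to Dock10, while the other steps were larger than the spread of both genes. The transcripts of both secreted C1q-like proteins were thus the most abundant per length. Within groups of WT mice, Dock10 varied least between animals (mean coefficient of variation 9.83%) and Dsp most (21%). The group means of each member in CPM are shown with all mice in the plot of levels by group.

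**Figure D2:**
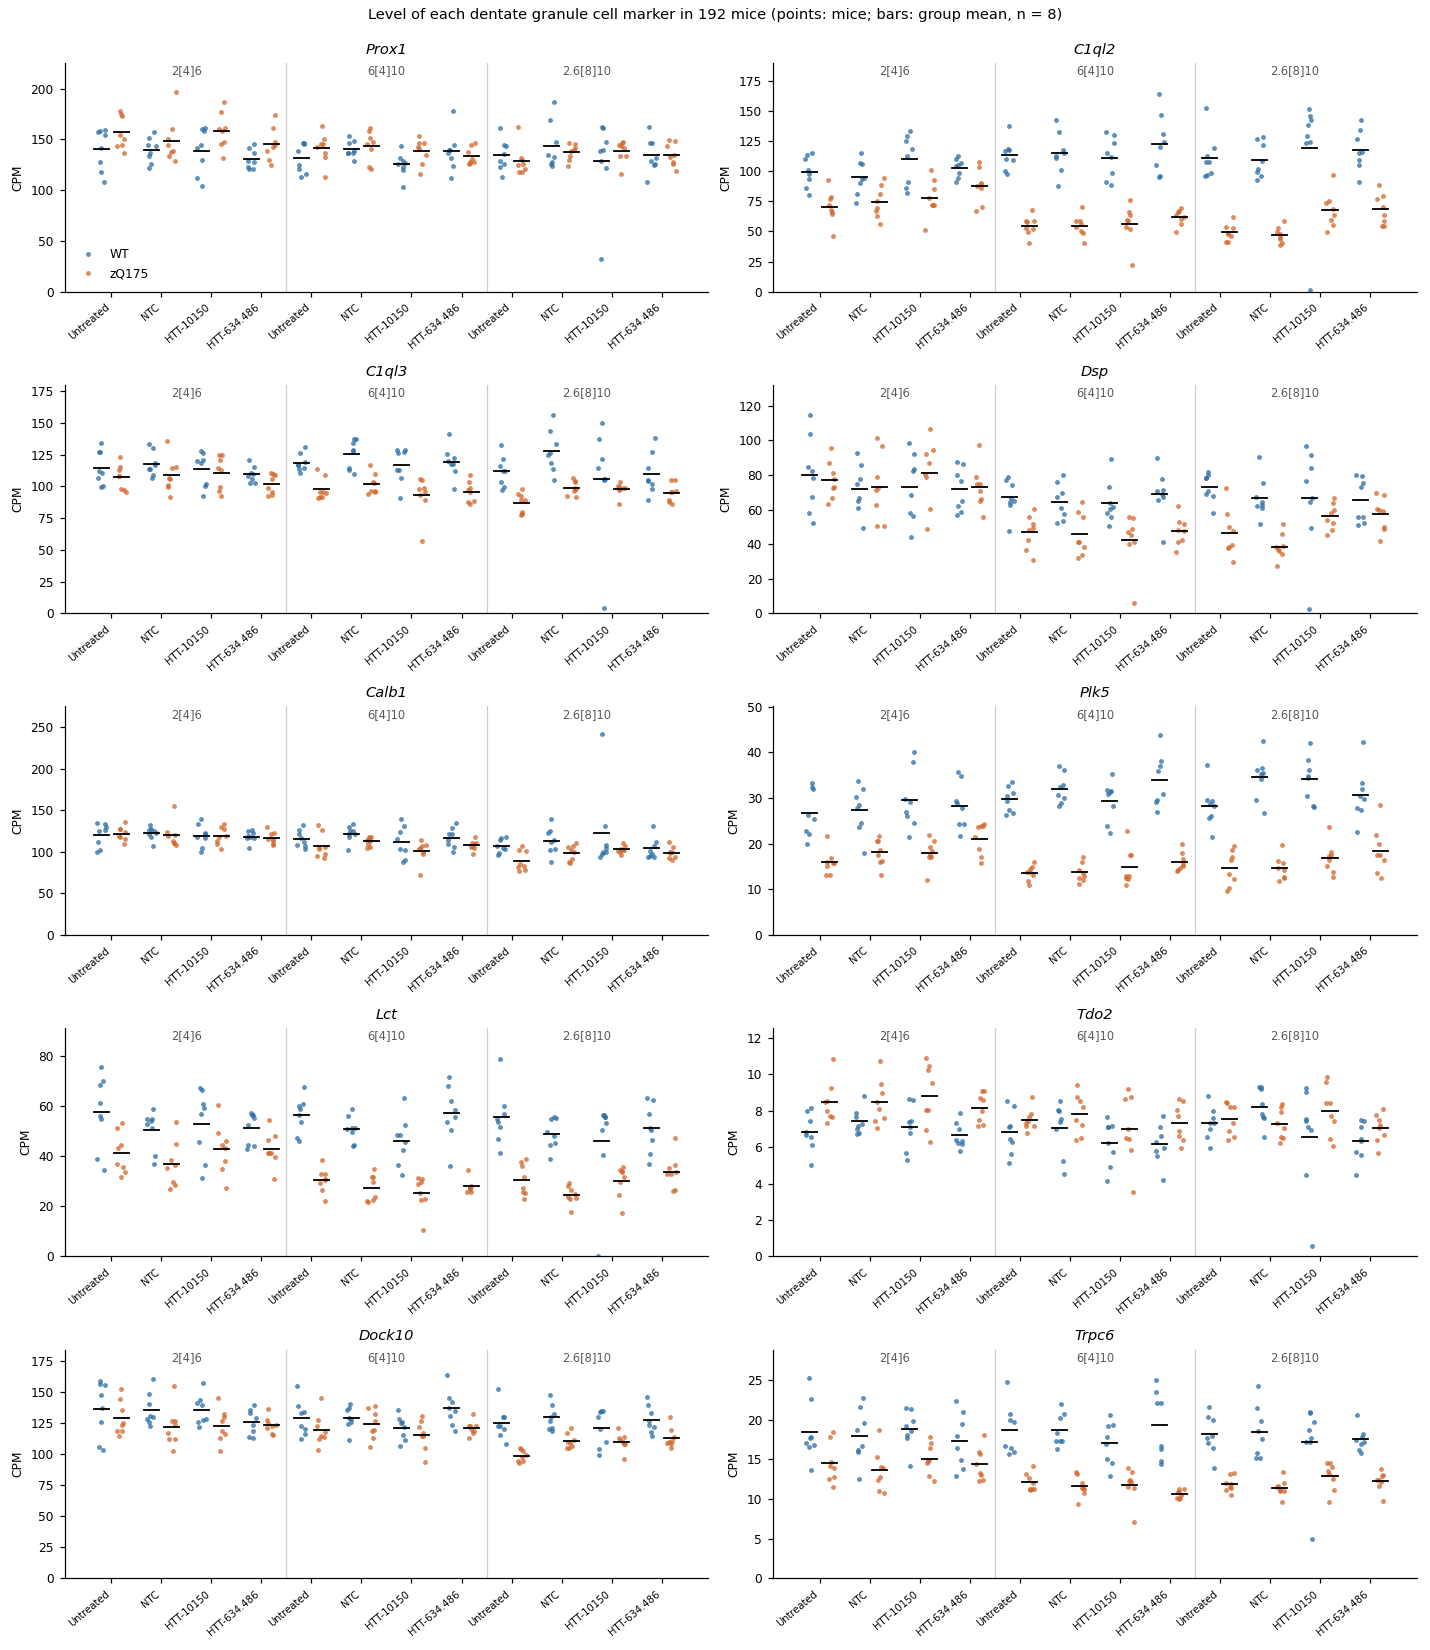
CPM of each marker in each of the 192 mice (points, WT blue, zQ175 orange) by regimen and treatment, with the mean of each group of 8 (bars). The zQ175 points of C1ql2, Plk5, Lct and Trpc6 lie under the WT points in most 10-month groups, those of Prox1 do not, and the lone low WT points in 2.6[8]10 HTT-10150 come from 1 library.

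The first question was whether the markers differ between zQ175 and WT mice of the same treatment and age. C1ql2, Plk5, Lct and Trpc6 were lowered in zQ175 mice in most groups of 10-month-old mice, and the lowest group means were 43.1% of WT for C1ql2 and 42.5% for Plk5. Dsp and C1ql3 were called lowered in 5 and 4 of the 12 comparisons, none of them in 6-month-old mice, Dock10 in 3, Calb1 in 1 after removal of 1 library, and Prox1 in none. In untreated mice, edgeR called 2 members lowered in 2[4]6 (2.29% of all 16575 genes tested were called lowered), 5 in 6[4]10 (6.19% of 16374) and 6 in 2.6[8]10 (6.45% of 15852, and 8 members and 8.71% of 15904 with 63 libraries). The median log2 change of the members was -0.08, -0.39 and -0.49, beside medians of 0.00, 0.01 and 0.00 over all genes. The p-values measure these differences against the spread between animals within groups. Each number in the library names, of unstated meaning, held mice of 1 genotype only. Differences between those numbers therefore cannot be told apart from genotype.

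In mice given NTC, 2 members were lowered in 2[4]6 (2.98% of genes), 6 in 6[4]10 (8.14%) and 6 in 2.6[8]10 (5.94%, and 7 members and 7.79% with 63 libraries). With HTT-10150 the counts were 2 (3.08%), 6 (8.28%) and 3 (5.32%, and 6 members and 3.95% with 63 libraries). With HTT-634.486 no member was called in 2[4]6 (1.48%), although DESeq2 and limma-voom each called 1. Of the 10 members 4 had an unadjusted p under 0.05 in edgeR, beside 2527 of all 16575 genes. In that treatment 7 were lowered in 6[4]10 (9.71%) and 2 in 2.6[8]10 (1.12%, and 4 members and 2.55% with 63 libraries). The only raised call in any of the 12 comparisons of genotype was Tdo2 in untreated 2[4]6 mice, where 1.86% of genes were called raised. In every 10-month comparison, and in 2[4]6 except with HTT-634.486, the share of members called lowered was above the share of all genes. The members were chosen with earlier results of these data known, so this is a description and not a test of enrichment.

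**Figure D3:**
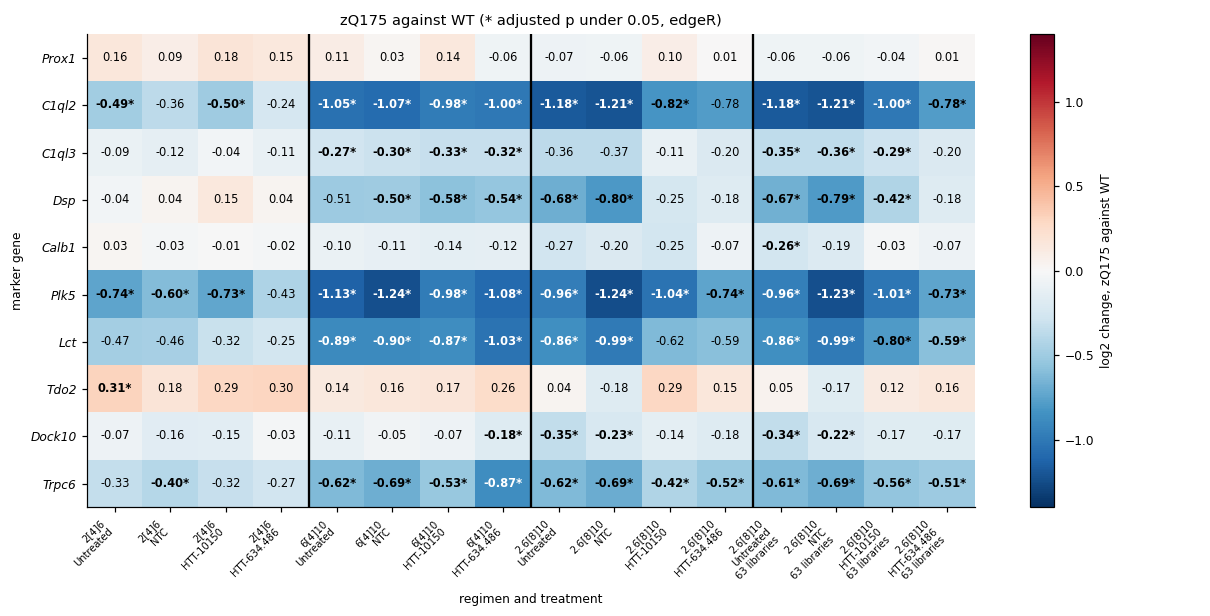
Log2 change of each marker between zQ175 and WT mice (colour and number) in the 12 combinations of regimen and treatment, with 2.6[8]10 fitted with 64 and with 63 libraries. Asterisks mark an adjusted p under 0.05 in edgeR: Plk5 and Trpc6 have one in every 10-month column, C1ql2 in all but 2.6[8]10 with HTT-634.486 (64 libraries), Lct in all but both active treatments of 2.6[8]10 (64 libraries), and Prox1 in none.

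Prox1, the identity factor, was not called in any of the 12 comparisons. In untreated 2.6[8]10 mice the lowest, median and highest levels were 112.5, 132.6 and 161.3 CPM in WT and 117.6, 125.4 and 162.6 CPM in zQ175, and the groups overlapped almost completely. In untreated 2[4]6 mice the means were 140.5 ± 20.3 CPM in WT (SD, n = 8) and 157.0 ± 16.1 CPM in zQ175, and in untreated 6[4]10 mice 131.4 ± 14.3 and 141.3 ± 14.7 CPM. Group means of zQ175 mice lay between 95.7% and 114.2% of those of WT mice over the 12 comparisons. The log2 changes ran from -0.07 to 0.18, with a smallest adjusted p of 0.159 (edgeR).

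The C1q-like protein C1ql2 was lowered in 9 of the 12 comparisons, and in 10 with 63 libraries in 2.6[8]10. Untreated WT mice of 6[4]10 had 97.5, 113.8 and 137.7 CPM (lowest, median, highest) and zQ175 mice 40.1, 55.6 and 67.7 CPM, so that all 8 zQ175 mice were below every WT mouse. The same complete separation was seen in untreated 2.6[8]10 mice, with 96, 107.9 and 153.0 CPM in WT and 41.6, 48.4 and 62.3 CPM in zQ175. At 6 months the groups overlapped, with means of 99.6 ± 12.8 CPM in WT (SD, n = 8) and 70.8 ± 13.3 CPM in zQ175. The log2 change was -0.49 ± 0.12 (SE, adjusted p = 0.00533) in 2[4]6, -1.05 ± 0.13 (9.85e-09) in 6[4]10 and -1.18 ± 0.24 (0.000348) in 2.6[8]10. With 63 libraries the last was -1.18 ± 0.11 (9.65e-13). Over the 12 comparisons zQ175 means were 43.1% to 85.2% of WT, and the separation was complete in 7 of them, or in 8 without the library that went against its label.

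C1ql3, the closest relative of C1ql2, changed less. Its untreated levels in 6[4]10 were 110.8, 116.7 and 130.7 CPM in WT and 90.9, 94.9 and 113.7 CPM in zQ175, with 7 of 8 zQ175 mice below every WT mouse. Its log2 change there was -0.27 ± 0.08 (adjusted p = 0.0105), and it was lowered under all 4 treatments of 6[4]10. In 2.6[8]10 the change in untreated mice was -0.36 ± 0.19 (adjusted p = 0.252) with 64 libraries and -0.35 ± 0.07 (0.000178) with 63. In 2[4]6 no change was called, with values from -0.12 to -0.04. Means of zQ175 mice were 77.5% to 97.7% of WT.

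Desmoplakin (Dsp) was called in mice of 10 months and not in those of 6 months. In untreated 2[4]6 mice the levels were 52.0, 80.2 and 114.6 CPM in WT and 63.1, 75.3 and 95.8 CPM in zQ175, with a log2 change of -0.04 ± 0.14. In untreated 2.6[8]10 mice they were 58.0, 74.6 and 81.5 CPM in WT and 29.5, 43.4 and 72.7 CPM in zQ175. The change there was -0.68 ± 0.21 (adjusted p = 0.0277), and with 63 libraries -0.67 ± 0.12 (2.14e-05). In untreated 6[4]10 mice it was -0.51 ± 0.18 and missed the threshold (adjusted p = 0.0511), whereas the other treatments of that regimen were called, with adjusted p from 0.0195 to 0.0451. Dsp was the most variable member between mice.

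Calbindin (Calb1) had untreated levels of 103.8, 113.7 and 131.7 CPM in WT and 92.1, 104.8 and 132.0 CPM in zQ175 mice of 6[4]10. It was called in none of the 12 comparisons with all libraries. With 63 libraries it was lowered in untreated 2.6[8]10 mice, at -0.26 ± 0.07 (adjusted p = 0.0091). Here the levels were 95.7, 105.4 and 118.2 CPM in WT and 76.4, 84.3 and 107.1 CPM in zQ175, and the groups overlapped.

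Plk5 was lowered in 11 of the 12 comparisons, more than any other member. Its untreated levels were 20, 25.8 and 33.2 CPM in WT and 13.1, 15.7 and 21.6 CPM in zQ175 mice of 2[4]6, where the groups overlapped slightly. In 6[4]10 they were 26.2, 29.9 and 33.5 CPM in WT and 10.9, 13.8 and 15.9 CPM in zQ175, and in 2.6[8]10 21.5, 28.4 and 37.2 against 9.52, 14.9 and 19.4 CPM, without overlap in either. The log2 change was -0.74 ± 0.13 (adjusted p = 7.83e-05), -1.13 ± 0.11 (5.97e-12) and -0.96 ± 0.13 (1.88e-07). The comparison not called was 2[4]6 with HTT-634.486, at -0.43 ± 0.13 (adjusted p = 0.056). Plk5 was also within its group's range in the library that lacked hippocampal markers, and its changes in 2.6[8]10 were nearly the same with 63 libraries (-0.96 ± 0.13 in untreated mice).

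Of the enzymes, lactase (Lct) was lowered in all 4 treatments of 6[4]10 and in 2 of 2.6[8]10, or all 4 with 63 libraries. Untreated mice of 6[4]10 had 45.9, 57.7 and 67.4 CPM in WT and 22.2, 30.6 and 38.5 CPM in zQ175, with no overlap. The log2 change was -0.89 ± 0.13 (adjusted p = 1.03e-06). In 2.6[8]10 it was -0.86 ± 0.23 (0.00798), or -0.86 ± 0.12 (1.57e-07) with 63 libraries. In 2[4]6, with 34.6, 58.7 and 75.5 CPM in WT and 31.6, 40 and 53.2 CPM in zQ175, it was -0.47 ± 0.15 and just missed the threshold (adjusted p = 0.0523).

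The other enzyme, Tdo2, went the opposite way where it was called. Its levels were 5.05, 6.74 and 8.18 CPM in WT and 7.35, 8.25 and 10.8 CPM in zQ175 untreated mice of 2[4]6, where 4 of 8 zQ175 mice were above every WT mouse. The log2 change was 0.31 ± 0.10 (adjusted p = 0.0468). In the other treatments of 2[4]6 the values were 0.18 to 0.30 and not called, and in the 10-month regimens they ran from -0.18 to 0.29. The highest of the latter was that of 2.6[8]10 with HTT-10150. There the zQ175 mean of Tdo2 was 122.2% of WT, and 108.1% without the library that went against its label. Tdo2 was the member with the lowest level.

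Dock10 was lowered in untreated and in NTC mice of 2.6[8]10 and with HTT-634.486 in 6[4]10. In untreated 2.6[8]10 mice the levels were 108.0, 122.1 and 152.1 CPM in WT and 92.8, 98.2 and 104.5 CPM in zQ175, so that all 8 zQ175 mice were below every WT mouse even though the mean was at 78.9% of WT. The log2 change was -0.35 ± 0.06 (adjusted p = 1.78e-05), and -0.34 ± 0.06 (5.58e-06) with 63 libraries. In untreated mice of the other 10-month regimen, 6[4]10, it was -0.11 ± 0.06 (adjusted p = 0.336).

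The channel Trpc6 was lowered in 9 of the 12 comparisons, in all 8 at 10 months and in NTC mice of 2[4]6. Untreated mice of 6[4]10 had 15.6, 18.2 and 24.7 CPM in WT and 11.2, 11.7 and 14.1 CPM in zQ175, and those of 2.6[8]10 14, 17.8 and 21.6 against 10.5, 11.6 and 13.3 CPM, with no overlap in either. The log2 changes were -0.62 ± 0.10 (adjusted p = 3.49e-06) and -0.62 ± 0.13 (0.000449), the latter -0.61 ± 0.09 (1.57e-07) with 63 libraries. In untreated 2[4]6 mice the change was -0.33 ± 0.11 (adjusted p = 0.0874). Means of zQ175 mice were 54.8% to 83.1% of WT.

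A further comparison asked how untreated mice of the 3 regimens differ, in a model of all 192 libraries. In zQ175 mice, Dsp was the only member lower in 6[4]10 than in 2[4]6, by -0.72 ± 0.18 (adjusted p = 0.0135; 0.716% of 16627 genes lowered), or by -0.72 ± 0.15 with 191 libraries (1 member, 1.15% of genes). Between 2.6[8]10 and 2[4]6, 4 members were lower (4.16%). They were Dsp (-0.74 ± 0.18), C1ql2 (-0.52 ± 0.17), Calb1 (-0.44 ± 0.09) and Dock10 (-0.38 ± 0.07). With 191 libraries they were 7 (5.47%), Lct (-0.43 ± 0.14), C1ql3 (-0.29 ± 0.07) and Prox1 (-0.28 ± 0.08) being added. Both 10-month regimens were untreated in this comparison, so their difference is one between sets of mice of the same age. Dock10 was nevertheless lower in 2.6[8]10 than in 6[4]10, at -0.28 ± 0.07 (adjusted p = 0.00687; 1.42% of genes), and with 191 libraries Calb1 was too, at -0.26 ± 0.07 (2 members, 1.63%).

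In untreated WT mice no member was called between regimens, and none had an unadjusted p under 0.05 with 192 libraries, where edgeR called 0.331% of genes in either direction for 6[4]10 against 2[4]6, 7.86% for 2.6[8]10 against 2[4]6 and 4.07% for 2.6[8]10 against 6[4]10. Values of the members ran from -0.25 to 0.20. Of all 16627 genes, 2185, 3603 and 2947 had an unadjusted p under 0.05 in these comparisons. With 191 libraries the genes called were 87, 1599 and 817 of 16681. Then 1 member value was under 0.05, for 2.6[8]10 against 2[4]6, beside 3916 of all genes. Whether the genotype difference itself changed with regimen was tested directly. With 192 libraries no member passed (0.0481%, 0.138% and 0% of genes in the same order, with 7 of 30 member values at an unadjusted p under 0.05). With 191 libraries C1ql2 did, and 5, 7 and 1 of 10 values were under 0.05 for 6[4]10 against 2[4]6, 2.6[8]10 against 2[4]6 and 2.6[8]10 against 6[4]10 (2, 4 and 1 with 192). Its genotype difference was 0.69 ± 0.17 log2 units more negative in 2.6[8]10 than in 2[4]6 (adjusted p = 0.0437, against 0.403 with 192 libraries), in a comparison in which 0.138% of genes were called more negative.

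The siRNA comparisons asked whether markers differ between mice given an active siRNA and mice given NTC, the control for delivery. With all libraries, no member was called by edgeR, DESeq2 or limma-voom in any of 12 comparisons, and 10 of the 120 member values had an unadjusted p under 0.05 in edgeR. Among all genes, the number under 0.05 ran from 642 to 3341 per comparison, both of 16575 in 2[4]6. In WT mice the shares of genes called in either direction were 0.0664% (2[4]6), 0.0183% (6[4]10) and 3.41% (2.6[8]10) with HTT-10150 and 0.0121%, 0.0244% and 0.751% with HTT-634.486. In zQ175 mice they were 3.57%, 0.0672% and 0.871% with HTT-10150 and 0.0302%, 0.959% and 2.04% with HTT-634.486. With 63 libraries the genes called in 2.6[8]10 were 264 (HTT-10150) and 329 (HTT-634.486) of 15904 in WT and 337 and 693 in zQ175 mice. The values of the members lay between -0.38 and 0.57 on the log2 scale. C1ql2, for example, was at 0.07 ± 0.12 and 0.23 ± 0.12 in zQ175 mice of 2[4]6 with HTT-10150 and HTT-634.486, and at 0.04 ± 0.13 and 0.18 ± 0.13 in those of 6[4]10.

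In zQ175 mice of 2.6[8]10 the estimates were higher, and the call depended on 1 library that is in neither of the groups compared. C1ql2 was at 38.9, 46.4 and 58.9 CPM (lowest, median, highest) with NTC, 49.8, 65.9 and 96.9 CPM with HTT-10150 and 54.4, 66.9 and 88.7 CPM with HTT-634.486. Of 8 mice each, 6 given HTT-10150 and 5 given HTT-634.486 were above every NTC mouse, and the means were 143.9% and 144.9% of the zQ175 NTC mean. WT mice given NTC had 92.6, 105.2 and 128.9 CPM, and 7 of 8 mice given HTT-10150 and all 8 given HTT-634.486 were below every one of them. The means were 62.0% and 62.4% of the WT NTC mean, compared with 43.1% in zQ175 NTC mice. Dsp had 27.1, 37.6 and 51.7 CPM with NTC, 45.3, 55.9 and 66.9 CPM with HTT-10150 and 42, 59.4 and 69.6 CPM with HTT-634.486. Its means were 83.8% and 85.5% of the WT NTC mean, compared with 57.7% in zQ175 NTC mice. Lct had 17.7, 24.3 and 29.3 CPM with NTC, 17.5, 32.5 and 35.8 CPM with HTT-10150 and 26.2, 33.2 and 47.2 CPM with HTT-634.486.

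With the 64 libraries of the regimen, C1ql2 was higher by 0.52 ± 0.24 with HTT-10150 (adjusted p = 0.374) and by 0.53 ± 0.24 with HTT-634.486 (0.285), and Dsp by 0.54 ± 0.22 (0.271) and 0.57 ± 0.22 (0.179). None of these is a call. With 63 libraries the sizes were nearly the same and the SEs smaller. C1ql2 was then raised with HTT-10150 by 0.52 ± 0.11 (adjusted p = 0.00234) and Dsp by 0.54 ± 0.12 (0.00471), 2 members where 1.45% of genes were raised. With HTT-634.486, C1ql2 was raised by 0.53 ± 0.11 (0.000968), Dsp by 0.57 ± 0.12 (0.00145) and Lct by 0.46 ± 0.12 (0.0159), 3 members where 2.4% of genes were raised. A fit of only the 16 libraries of both groups compared, which does not hold that library, also called 2 and 3 members. Prox1 stood at 0.01 and -0.02 in the fit of 64 libraries and was not called in either.

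**Figure D4:**
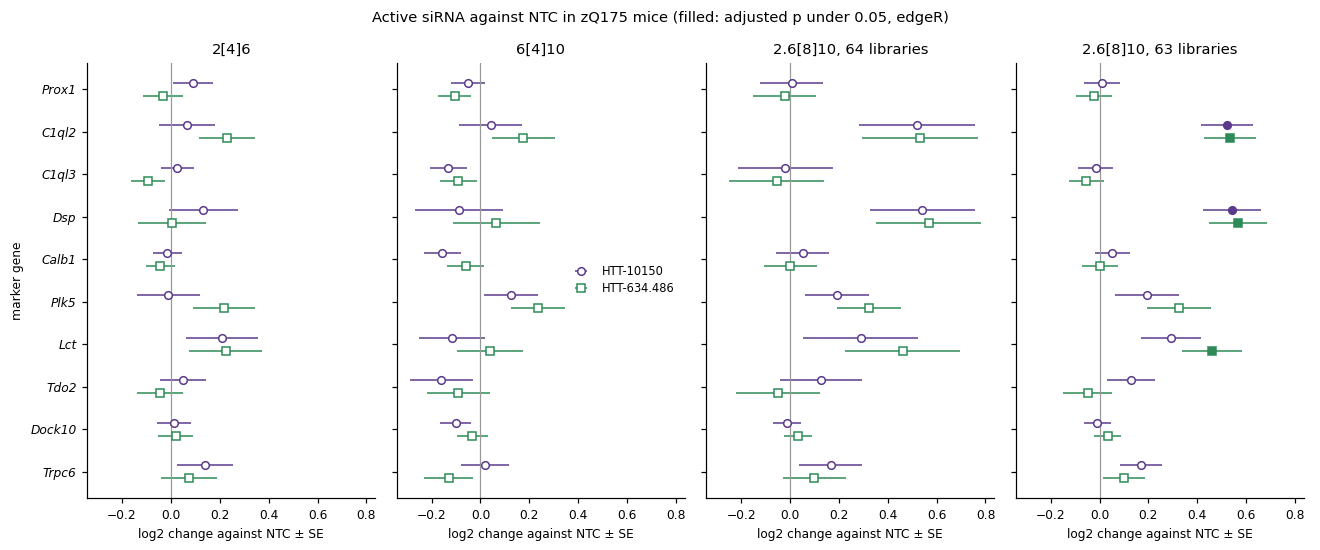
Log2 change ± SE of each marker with HTT-10150 (circles) and HTT-634.486 (squares) against NTC in zQ175 mice, by regimen, and for 2.6[8]10 with 64 and with 63 libraries. Filled symbols, adjusted p under 0.05 in edgeR, appear only in the last panel, for C1ql2 and Dsp with both treatments and for Lct with HTT-634.486.

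In WT mice of 2.6[8]10 with 63 libraries, Tdo2 was lowered with HTT-634.486, by -0.38 ± 0.10 (adjusted p = 0.0339; 0.711% of genes lowered), and C1ql2 was at 0.32 ± 0.11 with HTT-10150 (adjusted p = 0.123). Whether the change with siRNA differed between zQ175 and WT mice was tested as an interaction, and no member was called. The shares of genes called for this interaction were 0%, 0% and 0.0126% with HTT-10150 in 2[4]6, 6[4]10 and 2.6[8]10, and 0%, 0% and 0.00631% with HTT-634.486, with 2 of 60 member values at an unadjusted p under 0.05. Per comparison, 452 to 2191 genes were under 0.05, both of 16575 in 2[4]6. With 63 libraries, 2 of 10 values with HTT-10150 and 5 of 10 with HTT-634.486 were under 0.05 in 2.6[8]10 (0 and 2 with 64), and 1 and 7 of 15904 genes were called. The genes under 0.05 were 543 and 1155 of 15904 (945 and 799 of 15852 with 64). The lowest adjusted p with 63 libraries was that of Dsp with HTT-634.486 (difference 0.61 ± 0.17, adjusted p = 0.225). A rise specific to zQ175 mice was therefore not shown.

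Against untreated mice in place of NTC, a few members were raised with siRNA in zQ175 mice. Plk5 was raised in 2[4]6 with HTT-634.486, by 0.40 ± 0.13 (adjusted p = 0.0472; 2.03% of genes raised). Dock10 was raised in 2.6[8]10 with HTT-634.486, by 0.20 ± 0.06 (adjusted p = 0.0317; 2.55%). Neither Dsp nor Lct was called against untreated mice. Dsp averaged 46.5 ± 13.6 CPM (SD, n = 8) in untreated zQ175 mice of 2.6[8]10, 38.6 ± 7.41 with NTC, 56.0 ± 7.48 with HTT-10150 and 57.2 ± 9.64 with HTT-634.486. Lct averaged 30.6 ± 6.23, 24.5 ± 3.59, 30.1 ± 6.23 and 33.8 ± 6.58 CPM in the same order. With 63 libraries Dsp was 0.28 ± 0.12 (HTT-10150) and 0.31 ± 0.12 (HTT-634.486) above untreated, and Lct -0.02 ± 0.12 and 0.15 ± 0.12. NTC mice were at -0.26 ± 0.12 (Dsp, adjusted p = 0.307) and -0.31 ± 0.12 (Lct, 0.199) against untreated. With 63 libraries C1ql2 joined Dock10 with HTT-634.486, at 0.48 ± 0.11 (adjusted p = 0.00301; 2 members, 4.23%), and was also raised with HTT-10150, at 0.47 ± 0.11 (adjusted p = 0.0101; 1 member, 1.63%). NTC against untreated mice gave no call among the members in any of 6 comparisons with edgeR, DESeq2 or limma-voom, with 2 of 60 values at an unadjusted p under 0.05. Per comparison, the genes under 0.05 ran from 612 of 16374 to 2512 of 16575. The shares of all genes called were 0%, 0% and 0.694% in WT and 0.0302%, 0% and 1.02% in zQ175 mice of 2[4]6, 6[4]10 and 2.6[8]10. With 63 libraries edgeR still called no member in 2.6[8]10, but 2 of 10 values in WT and 5 of 10 in zQ175 mice had an unadjusted p under 0.05 (1 and 1 with 64), and 269 and 318 of 15904 genes were called. Of the same genes, 2232 and 2131 had an unadjusted p under 0.05.

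Both active treatments were also set against each other in zQ175 mice. Although 11.7% of genes differed between HTT-10150 and HTT-634.486 in 2[4]6 (0.116% in 6[4]10, 0.208% in 2.6[8]10), no member was called by edgeR, DESeq2 or limma-voom, and none of the 30 values had an unadjusted p under 0.05. The genes under it were 4366 of 16575 in 2[4]6, 1408 of 16374 in 6[4]10 and 922 of 15852 in 2.6[8]10. With 63 libraries 60 of 15904 genes and no member were called in 2.6[8]10. The values lay between -0.23 and 0.18 on the log2 scale. For C1ql2 the difference in 2.6[8]10 was -0.01 ± 0.11 and for Dsp -0.03 ± 0.12 with 63 libraries.

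Dsp was the only member called by edgeR between females and males. It was higher in males of 2[4]6 by 0.24 ± 0.07 (adjusted p = 0.0266, 3.72% of genes raised in males). In that regimen 6 of 10 members had an unadjusted p under 0.05, beside 3453 of all 16575 genes. In 6[4]10 (0.464%) and in 2.6[8]10 (0.795%) no member was called, although 2 and 3 had an unadjusted p under 0.05. The genes under it were 2330 of 16374 and 2330 of 15852. With 63 libraries 5 of 10 members were under it in 2.6[8]10, beside 2466 of 15904 genes. Dsp was then again higher in males, by 0.26 ± 0.06 (adjusted p = 0.00944, 1 member, 1.2%). The genotype difference was not called different between the sexes for any member, with 3 of 30 values at an unadjusted p under 0.05. The genes under it were 1705 of 16938 in 2[4]6, 1692 of 16746 in 6[4]10 and 2750 of 16164 in 2.6[8]10. The shares of genes called for that difference were 0%, 0.0179% and 6.17% in the 3 regimens, and with 63 libraries 1293 of 16299 genes in the last. Mice were placed by the sex on their label, including the 3 libraries whose sex markers did not match it. One of these, 2.6[8]10 WT NTC female 2, is in the last comparison. No comparison of the sexes was fitted without them. Each number in the library names of 2[4]6 and 2.6[8]10 also held mice of 1 sex only, as did nearly all in 6[4]10. In 2[4]6 and 2.6[8]10, differences between those numbers therefore cannot be told apart from sex.

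Next, the members were compared mouse by mouse within groups. For each gene, the deviation of log2 CPM from the mean of its group and sex was taken, and Pearson's r was computed between genes over the libraries, as a description without a test. Pairs share library, depth and the dissected tissue. The median r over the 45 pairs of members was 0.54 over 192 libraries, with a range from -0.32 to 0.94. Without the library that lacked hippocampal markers it was 0.55 (0.08 to 0.78), and without that and the low library of 6[4]10 it was 0.52 (0.07 to 0.79). All 45 pairs were above 0 in both of these settings. The negative values over 192 libraries involved Calb1, which was high in the library where most others were low. Over 190 libraries, Prox1 followed the mean of the other members most closely (r = 0.85), then Lct (0.82) and Dsp (0.79). Calb1 (0.44), Tdo2 (0.52) and Plk5 (0.55) followed it least. Prox1 therefore varied with the other markers from mouse to mouse, while its mean was not called different between genotypes.

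**Figure D5:**
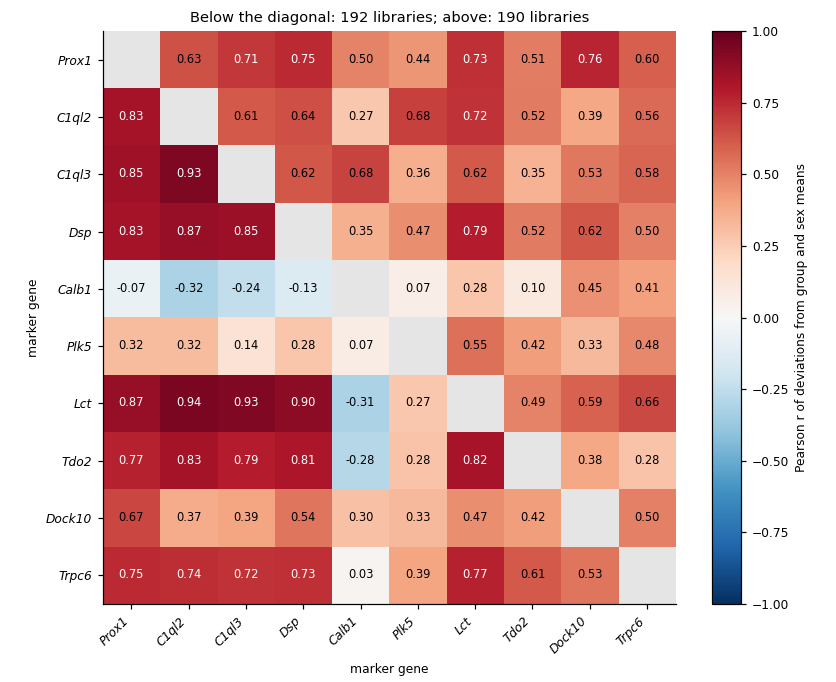
Pearson r between deviations of each pair of markers from their group and sex means, over 192 libraries (below the diagonal) and over 190 libraries (above). All 45 pairs are above 0 over 190 libraries, and they already were when only the library that lacked hippocampal markers was left out.

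The 10 other genes whose deviations were most like the mean of the members over 192 libraries were Stxbp6 (r = 0.92), Sema5a (0.91), Npnt (0.90), Ppfia2, Kctd4, Ehd3, Ccdc85a, Il16, Tanc1 and Btbd9 (0.86 to 0.89). Over 190 libraries they were Stxbp6 (0.85), Plekha2, Npnt, Sema5a, Orai2, Rbfox1, Camkk1, Scn3b, Camk2b and Smad3. Stxbp6, Npnt and Sema5a are in both lists. The mean of 12 other granule-enriched genes correlated with that of the members at r = 0.87 over 192 libraries and 0.90 over 190. For markers of CA3 and CA2 the values were 0.64 and 0.29, and for CA1 0.55 and 0.16. For interneurons they were -0.35 and -0.25, for the neocortex -0.11 and -0.38 and for the thalamus -0.24 and -0.40. The lists with the lowest r over 190 libraries were the C1q-like and cerebellin genes (-0.51, and -0.01 over 192) and 2 calcium-binding buffers (-0.48, and -0.03 over 192). Except for the granule-enriched genes and interneurons, these values moved by more than 1.5 times with 2 libraries, left out after seeing the data. The part of neighbouring tissue in the results was not tested.

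Other lists of genes give the setting of the genotype difference in untreated mice. Among 12 other granule-enriched genes, 3 were lowered in 2[4]6, 4 in 6[4]10 and 6 in 2.6[8]10 (8 with 63 libraries), and 1 was raised in 6[4]10 and, with 63 libraries, in 2.6[8]10. In 6[4]10 the lowered ones included Stxbp6 (-0.76 ± 0.09), the extrasynaptic GABA receptor subunit Gabrd (-0.55 ± 0.09) and Smad3 (-0.34 ± 0.06), and the raised one was Ablim3 (0.32 ± 0.07). Of 12 genes of immature granule cells, 3, 4 and 3 were raised in the 3 regimens and 0, 0 and 1 lowered, also with 63 libraries, and the list medians were -0.04, 0.14 and 0.10. Of all genes, 309 of 16575, 876 of 16374 and 739 of 15852 were raised. In 6[4]10 the raised ones were Neurog2 (1.29 ± 0.15), Sox11 (0.53 ± 0.08), Dcx (0.43 ± 0.10) and Neurod1 (0.21 ± 0.06). Genes of other neurons were lowered too. Of all genes tested, 2.29%, 6.19% and 6.45% were lowered in the 3 regimens (8.71% in 2.6[8]10 with 63 libraries). Of 8 CA1 markers, 2, 3 and 3 were lowered (6 with 63 libraries), among them Wfs1 in 6[4]10 (-1.14 ± 0.10). Of 9 CA3 and CA2 markers, 1, 5 and 3 were lowered (4 with 63 libraries), with Cdh24 (-0.84 ± 0.11) and Iyd (-0.79 ± 0.14) in 6[4]10. Of 8 interneuron genes, 4, 3 and 1 were lowered (2 with 63 libraries), and of 6 genes of all neurons 2, 4 and 2. Of 5 astrocyte genes, 3, 1 and 2 were lowered, and of 4 neocortex genes 1, 1 and 2, with 1 raised with 63 libraries. No gene of hilar mossy cells, oligodendrocytes, microglia or endothelium was called with all libraries, out of 5 each, and with 63 libraries 1 mossy cell gene was raised and 1 lowered. None of 4 thalamus genes was called, and 1 was lowered with 63 libraries. Choroid plexus genes varied strongly between mice of both genotypes, with a sum from 20.3 to 11622 CPM, and none of 6 was called.

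The relatives and partners of the members were looked at in the same untreated mice. None of 5 tested C1q-like and cerebellin genes was called in any regimen. Of 6 C1q-like receptor genes, the kainate receptor subunit Grik2 (-0.25 ± 0.05) and the neurexin Nrxn3 (-0.21 ± 0.05) were lowered and Nrxn2 (0.17 ± 0.04) was raised in 6[4]10, while Adgrb3 was at -0.13 ± 0.05 (adjusted p = 0.0651). Among 6 tested desmosome genes, Pkp2 was lowered (-0.32 ± 0.10) and Jup raised (0.20 ± 0.06) in that regimen. Of 4 polo-like kinases other than Plk5, Plk2 was lowered (-0.28 ± 0.06). Of 5 tested enzymes of the tryptophan and kynurenine pathways, Afmid, which acts right after Tdo2, was raised (0.68 ± 0.17). Dock11 was raised (0.40 ± 0.07), the only one of 10 other DOCK genes called in 6[4]10. None of 6 other TRPC channels was called in that regimen. In untreated 2.6[8]10 mice with 63 libraries, 3 of the 4 polo-like kinases and 1 of the 6 TRPC channels were lowered, where 8.71% of genes were. Of the 5 tryptophan and kynurenine enzymes 2 were raised there, and of the 10 DOCK genes 1 was raised and 1 lowered. Of the 6 C1q-like receptor genes 1 was raised and 2 lowered, and 1 of the 6 desmosome genes was lowered.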

How the data were processed

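PolyA-selected RNA of the hippocampus was measured in 192 libraries of 1 mouse each. The authors deposited expected counts per gene, made with RSEM on GRCm38 per the submitters' processing notes. All values were whole numbers (100.0%), with version, aligner and annotation not given in the sources used here. Of 41128 Ensembl genes, 40254 were found in GENCODE vM21, which gave names and exon lengths. A further 7 features without an Ensembl ID (6.85e-06% of counts) were left out. Each regimen (64 libraries) was fitted in edgeR 4.0.16 (R 4.3.3): filterByExpr by group, TMM factors, quasi-likelihood test on 8 group means and sex. Calls are Benjamini-Hochberg adjusted p under 0.05 over all genes tested. Differences between regimens came from 1 model of all 192 libraries. Levels are CPM with TMM factors over all libraries, and likeness uses log2 CPM with a prior count of 2. SE is that of the log2 change. Alternatives were DESeq2 1.42.0, limma 3.58.1 (voom), other scaling, filters and sample sets. On data simulated from 2[4]6 with 50 genes per size, edgeR called 26 of those raised 1.25-fold, 37 of those raised 1.5-fold and 50 of those raised 2-fold. All 10 members are named, and from each other list up to 4 genes of smallest adjusted p in untreated 6[4]10. The members and lists were chosen with earlier results of these data known.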

Additional observations from a re-analysis of the deposited data

Results flagged for a closer look

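For each member and group, the gap between the highest or lowest mouse and its nearest neighbour was divided by the range of the 8 mice. Of 240 sets, 21 exceeded Dixon's limit for 8 values, and chance alone passes about 1 in 20 sets. Of these, 6 come from the library labelled 2.6[8]10 WT HTT-10150 female 1. It was lowest in Prox1 (0.687), C1ql2 (0.81), C1ql3 (0.692), Lct (0.715) and Trpc6 (0.762) and highest in Calb1 (0.751). Another 6 come from 6[4]10 zQ175 HTT-10150 male 2, lowest in C1ql2 (0.557), C1ql3 (0.666), Dsp (0.68), Calb1 (0.599), Lct (0.57) and Trpc6 (0.631). The other 9 were spread over 6 groups. In 2[4]6 zQ175 NTC, male 3 was highest in Prox1 (0.537), Calb1 (0.662) and Dock10 (0.528). In 2.6[8]10 zQ175 HTT-10150, female 3 was lowest in Prox1 (0.551) and C1ql3 (0.656). Single cases were Prox1 in 2.6[8]10 zQ175 untreated female 4 (highest, 0.696), C1ql2 in 2.6[8]10 WT untreated male 4 (highest, 0.59), Plk5 in 2[4]6 zQ175 untreated male 4 (highest, 0.573) and Lct in 6[4]10 zQ175 HTT-634.486 male 2 (highest, 0.739).

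The genotype difference of C1ql2 in untreated mice was larger in 2.6[8]10 than in 2[4]6 by a test of the difference itself. The difference between regimens was -0.688 on the log2 scale with 191 libraries (edgeR, adjusted p = 0.0437). With 192 libraries it was not called.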

How the results depend on the processing

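Of 435 counts of called members recomputed under alternatives for 50 comparisons, 389 were within 1.5 times of the value reported and 46 were not. Of 4180 single member values, 4046 kept their side of the threshold, 63 lost the call and 71 gained it. Among values called in either fit, 0 reversed direction. The direction of values called in neither fit was not compared. The changes below are counts of called members, and unless another cause is named the cause was not tested. In 2.6[8]10, zQ175 mice given HTT-10150 against NTC went from 0 to 2, and those given HTT-634.486 from 0 to 3, in the fit of only the groups compared, without the library lacking hippocampal markers, and without that and the library of mismatched sex markers. With untreated mice in place of NTC, HTT-634.486 went from 0 to 1 in 2.6[8]10 and in 2[4]6, and without each replicate in turn it ranged from 0 to 2 in 2.6[8]10. In WT mice HTT-634.486 went from 0 to 1 without the first library. NTC against untreated zQ175 mice of 2.6[8]10 went from 0 to 1 in the fit of only the groups compared. For zQ175 against WT with HTT-10150 in 2.6[8]10, 3 became 1 with limma-voom and with only the groups compared, 6 without either set of libraries, and 1 to 5 without each replicate. With HTT-634.486, 2 became 5 with only the groups compared, 4 without either set, and 1 to 4 without each replicate. In NTC mice the range without each replicate was 3 to 7 in 2.6[8]10. In 2[4]6 it was 1 to 3 with HTT-10150, 1 to 4 in NTC mice and 1 to 3 in untreated mice, and 0 to 1 for HTT-10150 against HTT-634.486. DESeq2 and limma-voom called 4 in place of 2 in NTC mice of 2[4]6 and 1 in place of 0 with HTT-634.486. Without the library lacking hippocampal markers, zQ175 mice of 2.6[8]10 against untreated gave 1 in place of 0 (HTT-10150) and 2 in place of 1 (HTT-634.486), males against females 1 in place of 0, untreated zQ175 in 2.6[8]10 against 2[4]6 7 in place of 4 and against 6[4]10 2 in place of 1, and the genotype difference between 2.6[8]10 and 2[4]6 1 in place of 0. Only this alternative was run for the comparisons of regimens, sexes and interactions. The replicate numbers did not pair the samples (mean r of same-numbered mice 0.003, 0.029 and 0.032 in the 3 regimens), and the replicate block gave 1 in place of 0 for HTT-634.486 in 2[4]6. A block on the number in the library name could not be fitted for zQ175 against WT, because each number held mice of 1 genotype only. Mice of different groups that shared this number had a mean r of 0.024, 0.067 and 0.068 in 2[4]6, 6[4]10 and 2.6[8]10. Genotype and this number cannot be told apart, nor can sex and this number in 2[4]6 and 2.6[8]10. In the other comparisons the block moved no count beyond 1.5 times. The median r over the 45 pairs of members was 0.527 without TMM factors and 0.552 as Spearman's rank correlation. Tdo2 had the lowest level, 3.53 CPM or more outside the library lacking hippocampal markers.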
